A study of Mus musculus with 26 samples.

Results

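The tumours described here grew in the livers of mice that carried Gls2-CreERT2 together with Ctnnb1(ex3)fl/+ and Arid2fl/fl, a group called Gls2_CA below. In these mice a Cre recombinase that needs tamoxifen was driven by Gls2, a glutaminase gene of the hepatocytes that surround the portal vein. It removes exon 3 from 1 copy of Ctnnb1, which stabilises beta-catenin, and inactivates Arid2, which encodes part of the chromatin remodeller PBAF. The 9 Gls2_CA libraries and the 6 libraries of genotype WT were taken by their genotype labels, 15 of the 26 libraries of the series. Gls2_CA libraries came from 5 animal numbers (GAB18, GAB229, GAB235, GAB242 and GAB294), with 3 libraries each from GAB242 and GAB294, which were summed, so that n counts animals (5 against 6). Gls2_CA mice were of a mixed C57BL/6J and Swiss Webster strain, received tamoxifen on postnatal day 28 and were followed for 6 to 12 months. WT mice were C57BL/6J, had received Cre by adeno-associated virus, carried none of these alleles per the labels and were kept on normal chow for up to 12 months. Strain, virus, tamoxifen, follow-up and tumour therefore changed together and cannot be told apart. Sex and hour of collection are not given in the labels, and nothing in them says whether the 6 WT libraries are separate animals, which was assumed. The p-values therefore reflect how far animal numbers differ, which may be partly technical.

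Hepatocytes make most plasma proteins, bile acids, glucose, ketone bodies and cholesterol, and they break down amino acids and drugs. These programmes depend on a set of liver transcription factors and on hormones such as growth hormone and insulin, and they follow the circadian clock. Wnt signalling, zonation and cell division are the best known targets of activated beta-catenin in liver, and short lists of their genes were left out below. Genes outside those lists may also differ between zones or respond to beta-catenin, which was not tested. Cps1, on the periportal list left out, stayed among the hepatocyte markers.

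Total counts per library were 36992043 to 42865787 in Gls2_CA and 13486530 to 16975288 in WT, so depth changed with the groups too. The share of counts from mitochondrially encoded genes was 1.81 to 6.73% in Gls2_CA libraries and 8.90 to 11.1% in WT, and the 10 most abundant genes took 9.16 to 12.1% and 19.4 to 21.3%. Arid2 (chromosome 15, 96287518 to 96404992) was at 38.8, 22.9, 49.2, 33.3 and 32.6 CPM in GAB18, GAB229, GAB235, GAB242 and GAB294, and at 63.5 to 74.1 CPM in WT. Levels are in CPM, the usual count relative to the library total, here as scaled by TMM, and values of Gls2_CA are given below in this order of animals unless an animal is named. GAB235 stood apart: Ttn, which encodes the muscle protein titin, was at 31467 CPM in it, at most 4.20 CPM in the other Gls2_CA animals and at most 2.30 CPM in WT. GAB235 also had the lowest summed level of hepatocyte markers, and values without it are given beside the results that turned or moved by over 1.5 times. Coordinates are those of mm10.

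Of 14976 genes tested, 5870 rose (39.2%) and 5095 fell (34.0%) in Gls2_CA at an adjusted p under 0.05, in edgeR's quasi-likelihood test with Benjamini-Hochberg adjustment, which all adjusted p-values below come from. Changes of over 4-fold were called for 2233 genes that rose (14.9%) and 1004 that fell (6.70%). With upper-quartile scaling, which moved the median of all genes by -0.23 on the log2 scale, fewer genes rose than fell (5118 and 5838), and 1822 and 1502 did so by over 4-fold. Every Gls2_CA animal lay above every WT animal in 4264 genes (28.5%) and below every WT animal in 4135 (27.6%). Without GAB235, 40.4% of genes rose and 38.1% fell. Genes that rose had a median exon length of 5598 bases and genes that fell one of 3297. Whether this comes from the tumours or from the RNA and libraries cannot be told apart. A fit corrected for gene length and GC content, called the offset below, gave 35.9% of genes higher and 33.5% lower. Of the 194 genes named below that passed, it moved 78 by over 1.5-fold, and its value is given beside those whose call it ended and beside the lists whose balance of rises and falls it turned. With so many genes called, a list is described below by its counts against these shares, and a count near them says nothing about the list. Lists were also recounted without each of the 11 animals: counts of up to 2 genes moved by at most 2, and larger counts that moved by over 1.5 times, or whose balance turned, are given beside the list.

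**Figure D1:**
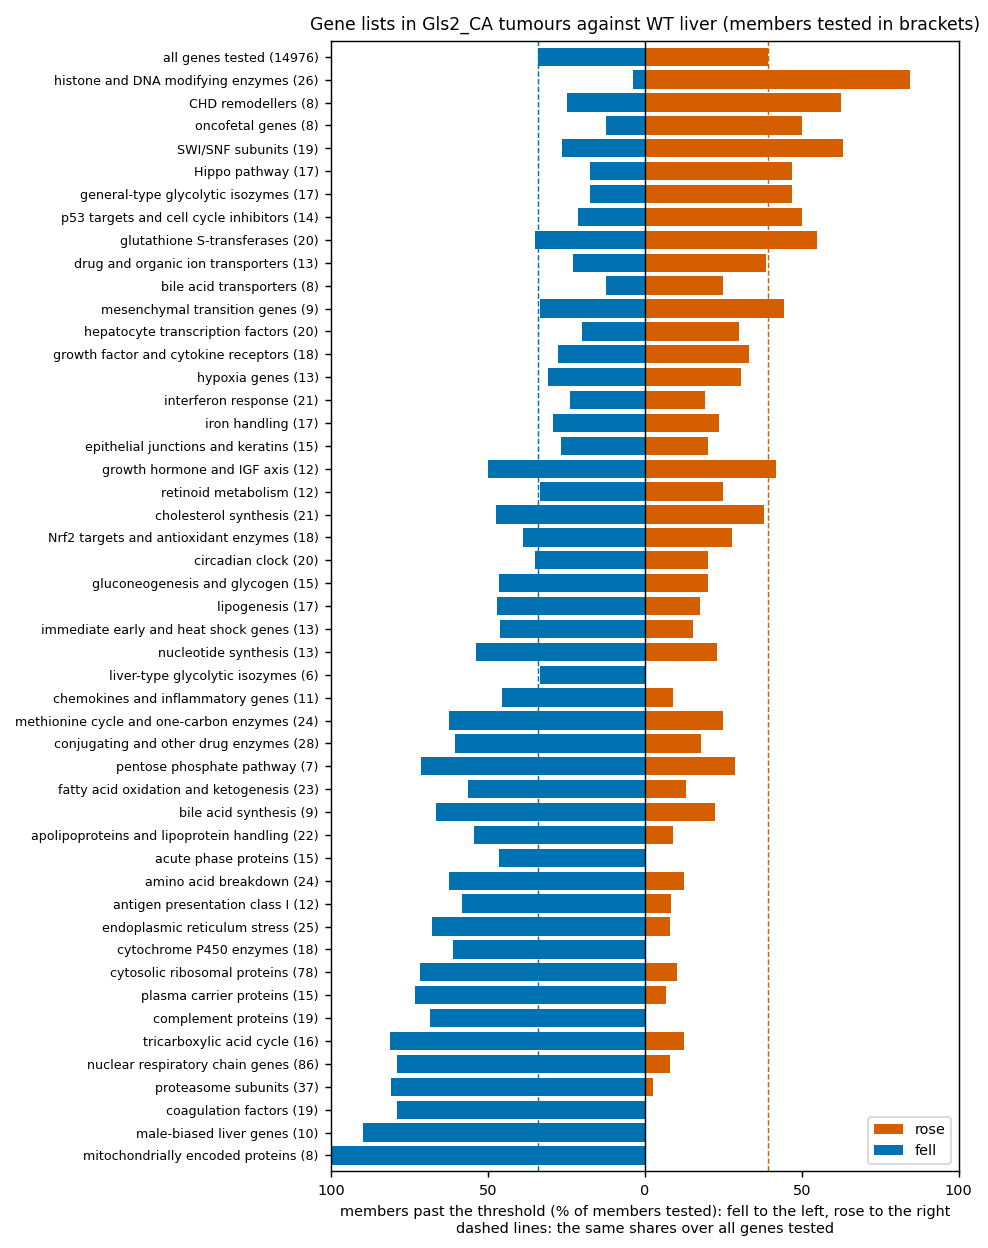
Share of the tested members of each of 48 gene lists that rose (orange, to the right) or fell (blue, to the left) in Gls2_CA against WT, with the number tested in brackets. The dashed lines mark the shares over all genes tested, 39.2% and 34.0%, and the bars of male-biased liver genes, coagulation factors and proteasome subunits reach far past the line on the left.

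Most of the 10 largest falls were in genes for proteins that male liver releases into blood and urine. Serpina1e, a copy of the alpha-1-antitrypsin family of protease inhibitors (chromosome 12, 103946931 to 103958975), was at 17.6, 16.1, 4.84, 12.4 and 22.5 CPM in the 5 Gls2_CA animals. In WT it lay between 8003 and 17114 CPM with a median of 13828. The groups did not overlap, which the choice of the 10 largest falls required. Serpina1e was 874-fold lower (log2 fold change -9.77, SE 0.553, adjusted p = 4.5e-08). Fewer cells of a type and less RNA per cell cannot be told apart in such bulk samples, here and below.

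Mup14, a major urinary protein that binds pheromones, had a mean of 266 ± 69.9 CPM in WT (SD, n = 6) and no counts in 3 of the 5 Gls2_CA animals (log2 fold change -11.04, adjusted p = 2.6e-07, and -11.74 without GAB294). Its relatives Mup11, Mup7, Mup1 and Mup17 were also among the 10 largest falls, at -9.69, -7.67, -7.43 and -6.56, or -11.78 for Mup11 without GAB242 and -8.48, -8.14 and -9.74 for the others without GAB294. Members of the Mup and Serpina1 families are so alike that their reads can be exchanged, and they differ between mouse strains, so the value of any 1 copy is uncertain, and the part of the strain in these falls was not tested. Selenbp2, a selenium-binding protein, was at 2.73, 14.7, 0.302, 1.06 and 2.20 CPM against 723 to 1727 (log2 fold change -8.02, adjusted p = 2.0e-05, and -9.42 without GAB229). Hsd3b5, a steroid reductase of male liver, fell from a WT median of 142 CPM to at most 2.48 CPM (log2 fold change -7.35, adjusted p = 3.7e-05, and -8.30 without GAB294). The other large falls were Moxd1, a monooxygenase-like protein (-8.30, and -12.06 without GAB294), and the pseudogene Serpina4-ps1 (-8.03, and -8.67 without GAB229). These changes of size rest on animals with few or no counts.

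Of 10 male-biased liver genes, which growth hormone pulses and the factor STAT5B maintain in males, 9 fell and 0 rose, 8 of them over 4-fold, with a median log2 fold change of -5.65 against 0.14 over all genes. This list holds Serpina1e, Selenbp2 and Hsd3b5. Slco1a1, an organic anion transporter, was at 15.2, 16.1, 4.13, 20.3 and 44.2 CPM against 824 to 1159.7 in WT (log2 fold change -5.58, adjusted p = 2.1e-06). Elovl3, which lengthens fatty acids, was the 1 member that did not pass (-0.87, adjusted p = 0.32). Transcripts of the Y chromosome were present in every animal of both groups, with Ddx3y at 33.9 to 127 CPM in Gls2_CA and 102 to 122 CPM in WT. Xist was at 18.1 CPM in GAB229 and at no more than 1.54 CPM in the other Gls2_CA animals and 2.21 in WT.

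Of 12 members of the growth hormone and insulin-like growth factor list 5 rose and 6 fell, against 39.2% and 34.0% of all genes. The counts were 5 and 4 without GAB242 or either of 2 WT animals. Ghr, the growth hormone receptor, was at 494, 367, 99.2, 254 and 409.5 CPM, all below the WT range of 541 to 605 (log2 fold change -0.82, adjusted p = 0.034). That call was lost without GAB242 (adjusted p = 0.081) or without any 1 of the 6 WT animals (0.052 to 0.061). The signal carriers downstream of it were higher: Jak2 by 1.74 (adjusted p = 2.0e-06), Stat5a by 1.67 (adjusted p = 1.9e-06) and Stat5b by 1.2 (adjusted p = 4.2e-06) on the log2 scale, with no overlap between the groups. With the offset Stat5a and Stat5b were at 0.71 and 0.66. Igfals, which holds insulin-like growth factors in blood, was 4.76-fold lower (20.5 ± 8.26 CPM, n = 5, against 97.7 ± 8.03, n = 6, adjusted p = 3.0e-05). Igfbp1, a binding protein that fasting induces, was at 171, 37.2, 5.01, 443 and 107 CPM against 3.70 to 35.3 in WT (log2 fold change 3.07, adjusted p = 0.0069). GAB235 alone lay inside the WT range of Igfbp1, and without GAB242 the change was 2.15. Igf1 itself rose by 0.83 (adjusted p = 0.0037) and was at 0.03 with the offset (adjusted p = 0.93).

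Most secreted plasma proteins fell. Alb, which encodes albumin, was at 9822, 6928, 2058, 7574 and 5927 CPM in Gls2_CA and at 51380 to 73527 CPM in WT, 9.36-fold lower (log2 fold change -3.23, SE 0.389, adjusted p = 1.4e-05). No Gls2_CA animal came near the WT range, and GAB235 was lowest. Of 15 plasma carrier proteins 11 fell and 1 rose, with a median of -2.25. Trf (transferrin, which carries iron) was at -2.25, Gc (which carries vitamin D) at -2.27 and Ttr (which carries thyroid hormone) at -2.54, while Rbp4, which carries retinol, was at -0.90 (adjusted p = 0.064 with the offset). Serpina7, thyroxine-binding globulin, rose, from 4.43 to 14.6 CPM in WT to 145, 82.7, 4.08, 90.5 and 154 CPM (log2 fold change 3.34, adjusted p = 6.7e-04). Again GAB235 was the only animal not above WT.

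**Figure D2:**
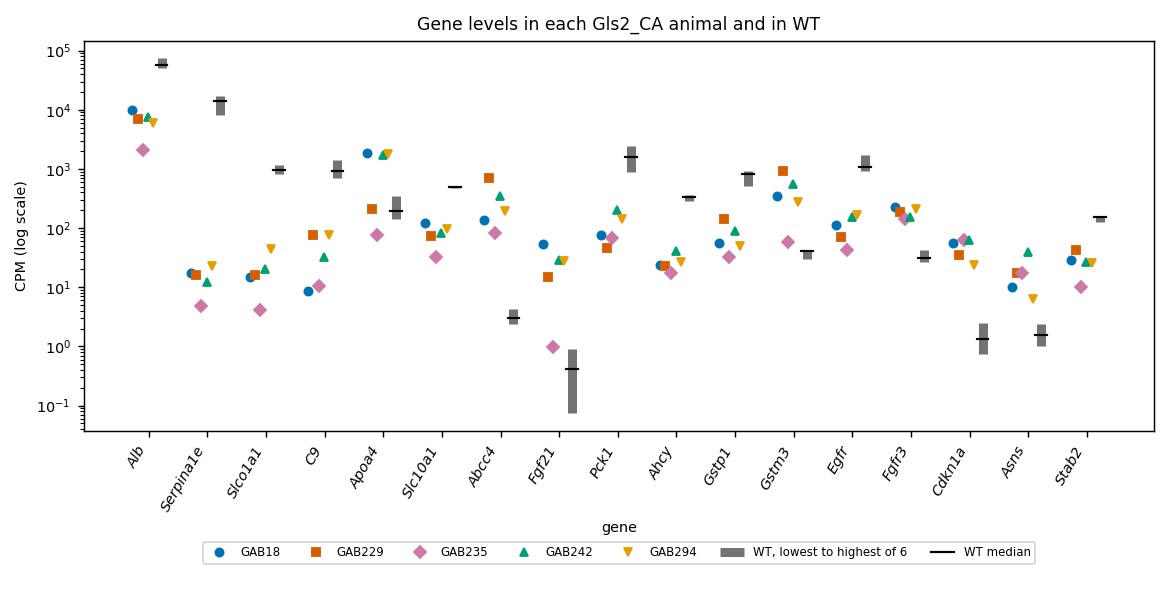
Level of 17 genes in each of the 5 Gls2_CA animals (coloured symbols) and in WT (grey bar from the lowest to the highest of 6 animals, black line at the median), as CPM on a log axis. Serpina1e, Slco1a1, Ahcy and Stab2 lie below the WT bar in all 5 animals, Abcc4, Fgfr3 and Cdkn1a lie above it, and GAB235 is the lowest animal for Alb and Fgf21.

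Coagulation factors fell in 15 of 19 cases with 0 rises (median -1.47), among them F12, which starts the contact pathway (5.53-fold lower, adjusted p = 1.0e-05), and the fibrinogen chain Fgb (7.06-fold lower, adjusted p = 7.5e-05). F9, factor IX, was at -0.74 and did not pass (adjusted p = 0.070), though it did without GAB235 (-0.48, adjusted p = 0.0040). GAB235 was the lowest Gls2_CA animal for all 19 coagulation factors, and without it 17 fell and 1 rose. Among 19 complement proteins 13 fell and 0 rose. Terminal components were among those that fell: C9, which lines the membrane pore, was at 8.53, 76.6, 10.5, 32.4 and 77.8 CPM against 708 to 1434 (log2 fold change -4.54, adjusted p = 4.7e-05), and C8b was 9.18-fold lower (adjusted p = 3.5e-05). C3, the central component, differed by less than the spread between animals (4853 ± 2272 CPM against 6051 ± 417, adjusted p = 0.42).

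Acute phase proteins, which liver releases in inflammation, fell in 7 of 15 cases and rose in 0, against 34.0% and 39.2% of all genes. Orm1, orosomucoid, was 10.7-fold lower (adjusted p = 2.3e-05) and Hp, haptoglobin, 3.94-fold lower (adjusted p = 0.0019). Saa2, serum amyloid A, had a wide range in both groups, 3.69 to 90.6 CPM against 7.55 to 833, and the call at -3.19 (adjusted p = 0.042) was lost with the offset (0.058) and without any of 6 single animals, 4 of them Gls2_CA. Of 22 apolipoproteins and lipoprotein genes 12 fell and 2 rose. Apoa1, the main protein of high-density lipoprotein, was 6.88-fold lower (adjusted p = 3.5e-05), and Apom 5.49-fold lower (adjusted p = 4.6e-05). Apoa4, of triglyceride-rich particles, moved the other way in 3 animals: it was at 1842, 209, 75.2, 1707 and 1791 CPM against 141 to 349 (log2 fold change 2.34, adjusted p = 0.0085). Apob, the core protein of other lipoproteins, did not pass (-0.88, adjusted p = 0.055), though it did without GAB18 or GAB235.

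The transcription factors that define hepatocytes did not move as one. Of 20 listed, 6 rose and 4 fell, which became 3 and 9 with upper-quartile scaling and 5 and 6 with the offset. Without GAB294 or 1 of the WT animals it was 3 and 4, and without any of 3 others, all WT, 3 and 3. Hnf4a, a central regulator of hepatocyte genes, was at 709, 817, 216, 886 and 771 CPM against 622 to 802 and did not pass (-0.05, adjusted p = 0.89). Foxa3, a pioneer factor, was 6.77-fold lower (23, 8.16, 4.89, 17.2 and 16.8 CPM against 73.5 to 116, adjusted p = 2.5e-05), and Onecut1 21.9-fold lower (adjusted p = 1.2e-04). Zbtb20, a repressor of fetal liver genes, was at 12974 to 19256 CPM in Gls2_CA and 867 to 1069 in WT, 16.1-fold higher (4.01 on the log2 scale with an SE of 0.199, adjusted p = 2.3e-08), or 1.84 with the offset. The nuclear receptor of drug sensing Nr1i3 was 3.04-fold higher (adjusted p = 2.1e-04). Ppara, the receptor that controls fat burning, rose by 1.48 (adjusted p = 0.0020), with GAB235 below all WT animals.

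Bile acid synthesis fell in 6 of 9 genes and rose in 2. Cyp8b1, which makes cholic acid, was 15.7-fold lower (6.80, 2.50, 2.57, 14.8 and 13 CPM against 87.3 to 164, adjusted p = 2.6e-05), and Slc27a5, a ligase for bile acids, 8.49-fold lower (adjusted p = 1.7e-06). Cyp7a1, the rate-limiting enzyme, overlapped between groups and fell by 1.55 on the log2 scale (adjusted p = 0.0028). Akr1d1, a reductase of the pathway, rose by 1.02 (adjusted p = 0.022), a call lost without GAB18 (0.076), without 1 of the WT animals (0.052) and with upper-quartile scaling (0.064). Of 8 bile acid transporters 2 rose and 1 fell (2 and 2 with upper-quartile scaling or the offset, and 1 and 2 without GAB229). Slc10a1, which takes bile acids up from blood, was at 120, 73.0, 32.5, 81.8 and 96.6 CPM against 475 to 506 (6.07-fold lower, adjusted p = 5.1e-06). Abcc4, which exports bile acids back to blood, was at 136, 698, 82.1, 346 and 192 CPM against 2.36 to 4.23, 93.7-fold higher (6.55 on the log2 scale with an SE of 0.556, adjusted p = 8.4e-07, and 5.93 without GAB229). Abcc4 was above every WT animal in all 5, and it was at 281.5 to 446 CPM over the 3 libraries of GAB242 and 96.4 to 341 CPM over those of GAB294. Abcb4, which moves phospholipid into bile, rose by 1.18 (adjusted p = 0.019), a call lost with the offset (0.45, adjusted p = 0.36) and without GAB229 (0.056).

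Of 15 genes of gluconeogenesis and glycogen 7 fell and 3 rose. Pck1, the key enzyme of gluconeogenesis, was at 75.0, 45.4, 66.7, 204 and 142 CPM against 884 to 2405 (14.8-fold lower, adjusted p = 1.2e-05). The risers included Ppargc1a, a coactivator that normally raises Pck1, which was 7.26-fold higher (106 ± 16.4 against 14.7 ± 1.75 CPM, adjusted p = 2.0e-08), and Phka2, a subunit of the kinase that starts glycogen breakdown (5.58-fold higher, adjusted p = 4.2e-07). No animal overlapped between groups for any of these 3.

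In fatty acid oxidation and ketogenesis 13 of 23 genes fell and 3 rose (14 and 7 without GAB235). Etfa, which passes electrons from fatty acids to the respiratory chain, was 5.48-fold lower (adjusted p = 1.5e-06). Fgf21, a fasting hormone, was at 53, 15.0, 0.983, 28.9 and 28.2 CPM against 0.0738 to 0.891 (log2 fold change 5.90, SE 0.858, adjusted p = 6.6e-05). Cyp4a14, a fatty acid hydroxylase, rose by 3.69 (adjusted p = 0.0047), with GAB229 inside the WT range, and by 5.01 without the highest of the WT animals. Both are textbook targets of Ppara.

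Lipogenesis genes fell in 8 of 17 cases and rose in 3 (8 and 5 without GAB235, and 8 and 1 with the offset, where the median was -0.78 in place of -0.20). Thrsp, which promotes fat synthesis, was 33.7-fold lower (68.5, 27.2, 21, 39.9 and 32 CPM against 941 to 1608, adjusted p = 1.9e-07), and Dgat2, the last step of triglyceride synthesis, 5.45-fold lower (adjusted p = 1.3e-06). Mlxipl, a glucose-sensing factor that drives fat synthesis genes, rose by 2.49 (adjusted p = 2.3e-04), at 2539, 3863, 429, 1776 and 3106 CPM against 371 to 570.4, with GAB235 inside the WT range. Of 21 cholesterol synthesis genes 8 rose and 10 fell (5 and 10 with upper-quartile scaling, 8 and 7 without GAB229), against 39.2% and 34.0% of all genes. Hmgcs1, an early enzyme, rose by 1.96 (adjusted p = 2.5e-04) and Dhcr7, the last step, by 1.54 (adjusted p = 6.4e-04). Ebp and Tm7sf2, intermediate steps, were 4.58-fold and 4.15-fold lower (adjusted p = 1.3e-05 and 4.7e-05), as was Insig1, a brake on the pathway (4.57-fold, adjusted p = 1.8e-04).

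Glycolytic genes were listed by isozyme. Of the 6 liver-type glycolytic genes 2 fell and 0 rose. Of 17 general-type genes 8 rose and 3 fell (4 and 4 with DESeq2). Over all genes 39.2% rose and 34.0% fell. Aldoa, the muscle and general aldolase, was 3.85-fold higher (adjusted p = 3.7e-05), and Tpi1 2.95-fold lower (adjusted p = 2.7e-06). Pkm, the non-liver pyruvate kinase, was at 658 CPM in GAB235 and 28.6 to 65.6 CPM in the other 4, against 10.1 to 13.3 in WT, and its log2 fold change was 3.85 with GAB235 (adjusted p = 0.0016) and 1.77 without it (adjusted p = 1.6e-05).

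The tricarboxylic acid cycle fell in 13 of 16 genes and rose in 2. Suclg1 was 7.74-fold lower (adjusted p = 2.8e-06), Sdha, of succinate dehydrogenase, 4.70-fold lower (adjusted p = 5.9e-07) and Pdhb, of pyruvate dehydrogenase, 5.13-fold lower (adjusted p = 5.8e-07). Ogdh, of the oxoglutarate dehydrogenase complex, was at 958, 1129, 868, 1112 and 846 CPM, all above the WT range of 231 to 263 (3.89-fold higher, adjusted p = 1.7e-07). Idh2 rose by 1.25 (adjusted p = 9.2e-04). The nuclear genes of the respiratory chain fell in 68 of 86 cases and rose in 7, with a median of -1.48 (53 and 15 of 85 with the offset, median -0.92). Ndufaf4, which helps assemble complex I, was 7.37-fold lower (adjusted p = 1.3e-08). All 8 mitochondrially encoded genes tested fell, COX1 from 20527 to 23332 CPM in WT to 10305, 9870, 3817, 8385 and 6621 CPM (-1.48, adjusted p = 4.0e-04).

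Amino acid breakdown fell in 15 of 24 genes, 10 of them over 4-fold, and rose in 3 (6 without GAB235). Tdo2, which opens the tryptophan ring, was 10.9-fold lower (adjusted p = 2.7e-06) and Aass, of lysine breakdown, 8.11-fold lower (adjusted p = 8.3e-07). Bckdhb, of the branched-chain ketoacid dehydrogenase, rose instead (2.15-fold, adjusted p = 4.5e-05). Enzymes of the methionine cycle and one-carbon metabolism fell in 15 of 24 cases and rose in 6. Ahcy, which clears S-adenosylhomocysteine, the product of methylation reactions, was at 23.6, 22.9, 17.5, 41.3 and 26.9 CPM against 287 to 356 (12.3-fold lower, SE of the log2 fold change 0.220, adjusted p = 7.1e-08). The groups of Ahcy lay far apart in every animal. Gldc, of glycine cleavage, was 9.90-fold lower (adjusted p = 4.5e-05). The pentose phosphate pathway (2 of 7 rose and 5 fell) and nucleotide synthesis (3 of 13 rose and 7 fell) also moved in both directions.

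Drug metabolism fell for the cytochromes P450, with 11 of 18 lower and 0 higher. Cyp2d9 was at 143, 186, 34.1, 75.6 and 99.9 CPM against 1131 to 1278 (11.2-fold lower, adjusted p = 5.8e-06), whereas Cyp3a11, a main drug-metabolising form, overlapped between groups (adjusted p = 0.68). Conjugating and other drug enzymes fell in 17 of 28 cases and rose in 5 (3 without any of 6 single animals, 3 of each group). Ugt2b1, a glucuronosyltransferase, was 20.4-fold lower (adjusted p = 6.6e-07) and Glyat, which conjugates glycine, 7.13-fold lower (adjusted p = 1.6e-05). Tpmt, which methylates thiopurines, rose by 1.61 (adjusted p = 2.5e-04) and Fmo5, a flavin monooxygenase, by 1.28 (adjusted p = 0.0030). Members of these families have close copies that can share reads.

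Glutathione S-transferases, which couple glutathione to reactive compounds, rose in 11 and fell in 7 of 20 cases, 6 and 3 of them over 4-fold. Gstm3 was at 347, 931, 58.6, 553 and 273 CPM against 30.5 to 43.3 (11.2-fold higher, SE of the log2 fold change 0.516, adjusted p = 7.5e-05), and Gstm4 was 9.52-fold higher (adjusted p = 3.3e-05). Gstp1 fell from 507 to 939 CPM in WT to 55.9, 144, 33.0, 89.0 and 49.6 CPM (10.2-fold lower, adjusted p = 9.5e-06). Its neighbouring copy Gstp2 rose by 3.83 (adjusted p = 0.0012), with 2 animals, GAB18 and GAB235, inside the WT range, and by 3.20 without GAB229. Gsto1 was 10.8-fold lower (adjusted p = 1.6e-05). Gsta1 was at 0.850, 25.0, 0.680, 6.56 and 0.607 CPM against 0 to 0.338.

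The size of these rises differed among animals. GAB229 had the highest level of the 5 animals for 13 of the 20 glutathione S-transferases and for 9 of 18 Nrf2 targets and antioxidant enzymes, and GAB235 the lowest for 17 and 14. Slc7a11, the cystine importer, was at 2.71, 273, 3.78, 190.4 and 7.57 CPM against 0 to 0.133 in WT (log2 fold change 10.69, SE 1.713, adjusted p = 1.4e-04, and 9.79 without GAB229). All 5 animals lay above WT, which the choice of the largest rises required, and GAB229 and GAB242 stood far above the other 3. Within GAB242 its 3 libraries were at 8.80, 75.8 and 499 CPM, so libraries of 1 animal differed too. Gclc, the rate-limiting enzyme of glutathione synthesis, was at 568, 1313, 107, 531 and 395 CPM against 133 to 232 (1.70, adjusted p = 0.0053) and Nqo1, a quinone reductase, rose by 2.21 (adjusted p = 0.0013). Of the 18, 5 rose and 7 fell, 4 of them over 4-fold. Without GAB235, 7 rose and 6 fell, 0 of them over 4-fold. Those that fell were mostly enzymes that remove peroxide and superoxide: Cat (3.45-fold lower, adjusted p = 0.0011), Prdx1 (4.43-fold, adjusted p = 7.2e-06) and Sod2 (4.10-fold, adjusted p = 4.5e-06).

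**Figure D3:**
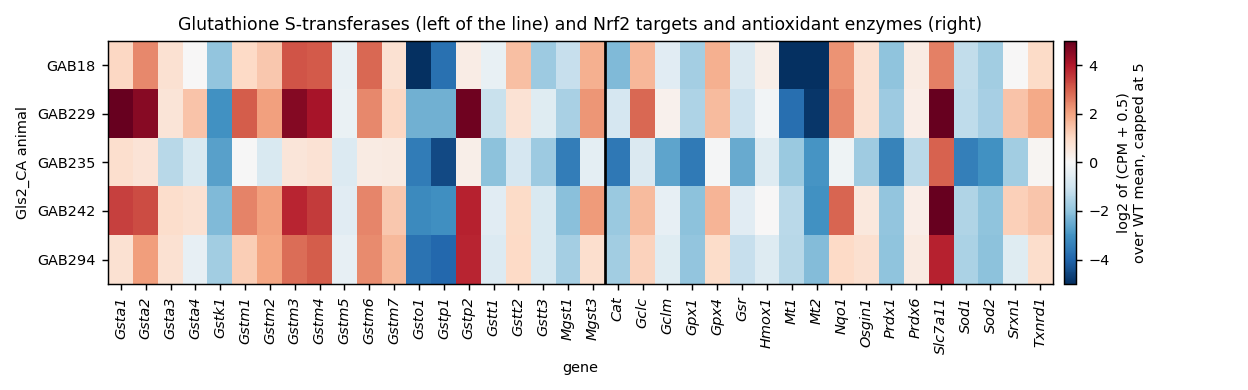
Level of 20 glutathione S-transferases and 18 Nrf2 targets and antioxidant enzymes in each Gls2_CA animal, as log2 of CPM plus 0.5 over the WT mean plus 0.5, with colours ending at 5. GAB229 is the darkest red for Gsta2, Gstm3, Gstm4 and Gclc, and Slc7a11 is red in all 5 animals.

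Of 13 transporters of drugs and organic ions 5 rose and 3 fell, against 39.2% and 34.0% of all genes. The counts were 3 and 4 with upper-quartile scaling, 3 and 3 with the offset, and 8 and 4 without GAB235. Abcb1a, the efflux pump P-glycoprotein, was 9.72-fold higher (55.8, 69, 7.51, 46.9 and 32.3 CPM against 3.61 to 5.45, adjusted p = 2.9e-05), and Slc22a7, an organic anion importer, 14-fold lower (adjusted p = 0.0022, and -4.73 in place of -3.81 on the log2 scale without GAB18). In iron handling 4 of 17 rose and 5 fell, against the same shares of all genes. Hamp, the iron hormone hepcidin, was at 14.9, 12.1, 195, 42.4 and 89.7 CPM against 430 to 798, 8.06-fold lower (adjusted p = 0.0015), a call lost with the offset (-1.52, adjusted p = 0.067), and without GAB235 the log2 value was -3.83 in place of -3.01. The iron importer Slc11a2 rose by 1.81 (adjusted p = 2.4e-06), and the iron sensor Aco1 was 4.94-fold lower (adjusted p = 6.4e-07). In retinoid metabolism 3 of 12 rose and 4 fell, against 39.2% and 34.0% of all genes. The receptor Rara was 4.03-fold higher (adjusted p = 1.8e-07) and the reductase Dhrs3 3.03-fold higher (adjusted p = 3.2e-05).

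Markers of the other cells of the liver were measured beside these genes. Sinusoidal endothelium lines the liver's own capillaries, and all 10 of its markers fell and lay below every WT animal in every Gls2_CA animal. Their sum was 87.5 to 205 CPM against 462 to 554.5 in WT. Stab2, a scavenger receptor of these cells, was at 28.4, 42.3, 9.98, 26.4 and 25.3 CPM against 127 to 158 (5.53-fold lower, adjusted p = 1.1e-05), and Mrc1 was 4.95-fold lower (adjusted p = 1.8e-06). Of 13 general vascular markers 4 rose and 4 fell (3 and 6 with upper-quartile scaling, 3 and 5 with the offset). Pecam1, of all endothelium, was 3.15-fold higher (adjusted p = 1.5e-05) and Esm1, of sprouting vessels, 10.9-fold higher at low levels (0.25 ± 0.22 CPM in WT and 2.70 ± 1.01 in Gls2_CA, adjusted p = 4.5e-04). Cldn5 was 5.11-fold lower (adjusted p = 8.5e-05).

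Kupffer cell markers fell in 8 of 12 cases and rose in 1, with a sum of 146 to 283 CPM against 366 to 452. Clec4f, a marker of resident Kupffer cells, was at 7.42, 11.9, 15.4, 20.1 and 10.6 CPM against 68.7 to 80.7 (5.91-fold lower, adjusted p = 1.1e-06), and Vsig4 was 6.29-fold lower (adjusted p = 9.5e-07). Csf1r, on most macrophages, rose by 0.49 (adjusted p = 0.035), a call lost with the offset (-0.08) and without GAB229, GAB242 or any 1 of the WT animals. Among markers of monocyte-derived macrophages 5 of 8 rose and 1 fell (2 and 1 with upper-quartile scaling or without any of 4 single animals, GAB229 and 3 WT), with Gpnmb 10.9-fold higher from a low level (adjusted p = 1.3e-04). Csf3r, the neutrophil growth factor receptor, was at 17.1 to 23.3 CPM against 1.19 to 3.67 (10.1-fold higher, adjusted p = 1.1e-06), whereas the neutrophil protein S100a8 fell (4.34-fold, adjusted p = 0.012), a call lost with the offset (0.24), and its log2 value of -2.12 was -1.46 without the highest of the WT animals. Of 6 markers of dendritic cells and class II genes 2 rose and 1 fell, against 39.2% and 34.0% of all genes. The counts were 1 and 2 with upper-quartile scaling, 3 and 0 with the offset, and 1 and 3 without GAB229. Ciita, the activator of class II genes, was 7.36-fold higher (adjusted p = 6.0e-06). Cd74, which it controls, reached 274 CPM in GAB229 but overlapped WT elsewhere (adjusted p = 0.099). Markers of T, NK, B and erythroid cells were few enough that 2, 1 and 3 could be tested for T and NK, B and erythroid cells, and only 1, of B cells, was called, as lower. Without GAB235, 2 of the 3 T and NK markers then tested and 1 of 3 erythroid markers were called, all as lower.

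Stellate cell markers fell in 7 of 12 cases and rose in 1, Acta2 (2.07-fold, adjusted p = 0.010). Lrat, which stores vitamin A, was 6.34-fold lower (adjusted p = 2.9e-07) and Des 4.54-fold lower (adjusted p = 1.7e-06). Fibroblast and matrix genes fell in 8 of 18 cases and rose in 5, and in 12 and 2 with the offset. The summed level of this list went the other way except in GAB235. It was 3448 CPM in GAB235 and 12175 to 18204 CPM in the other Gls2_CA animals, against 4242 to 4852 in WT. Col3a1, a fibrillar collagen, was 3.50-fold lower (adjusted p = 4.9e-06), and Col4a1, of basement membrane, rose by 1.24 (adjusted p = 2.1e-04), or 0.22 with the offset (adjusted p = 0.46). Of 9 cholangiocyte markers 3 rose and 3 fell (3 and 4 with the offset), near the shares over all genes. Of 12 skeletal muscle and 10 neuron markers only 3 and 5 had enough counts to be tested, and all of these rose. A marker with few counts in WT passes the expression filter only through its Gls2_CA counts. That all tested members rose therefore says little about these lists. The sums of the muscle and neuron lists were 1048 to 32088 CPM and 90.2 to 478 CPM, against 108 to 154 and 26.4 to 33.0 in WT. The muscle sum of 32088 CPM was that of GAB235, and the next highest was 1852 CPM, while Myh2 and Snap25 of these lists had no counts in any animal. Neb, of muscle, was 7.59-fold higher (adjusted p = 4.6e-07), or 1.03 on the log2 scale with the offset. The part of other cells in the results above was not tested.

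**Figure D4:**
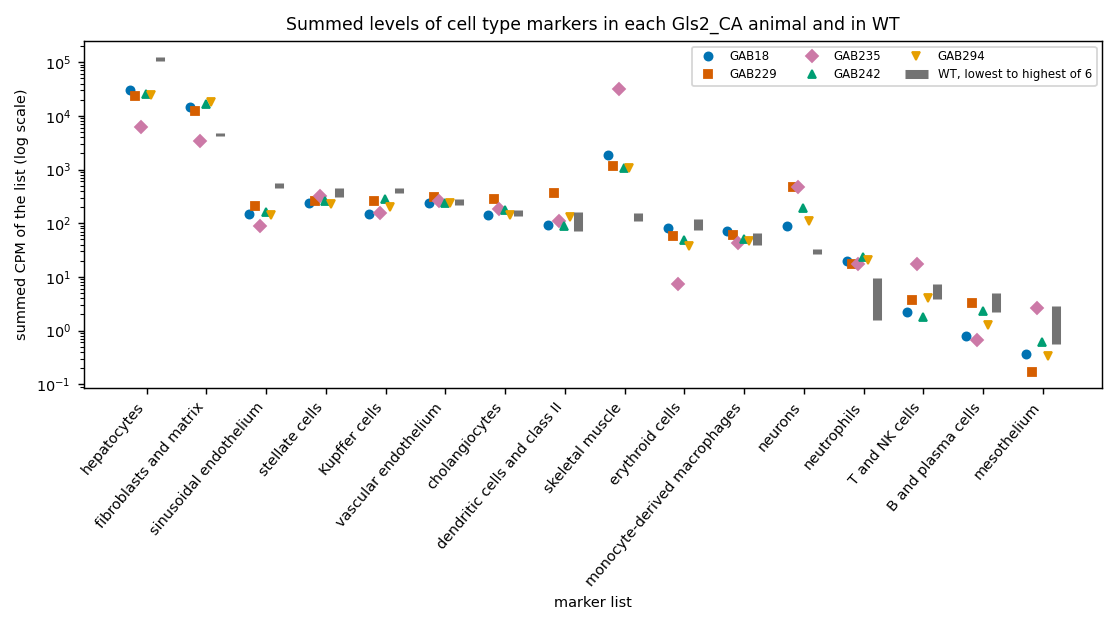
Summed CPM of the markers of 16 cell types in each Gls2_CA animal (coloured symbols) and in WT (grey bars from lowest to highest) on a log axis. All 5 Gls2_CA animals lie below the WT bar for hepatocytes, sinusoidal endothelium and Kupffer cells, and above it for skeletal muscle, neurons and neutrophils. The neutrophil sum (17.2 to 24.0 CPM in Gls2_CA) was mostly Csf3r. Of the 5 neutrophil markers 2 could be tested, of which 1 rose (Csf3r) and 1 fell (S100a8).

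In immune signalling, a smaller share of interferon response genes was called in each direction than of all genes (39.2% rose and 34.0% fell). Of 21 interferon response genes 4 rose and 5 fell (6 and 4 without GAB235, 5 and 3 with the offset), with Gbp3 3.29-fold higher (adjusted p = 1.3e-05) and Ddx58, the sensor RIG-I, 2.87-fold lower (adjusted p = 1.4e-06). Of 12 genes of class I antigen presentation 7 fell and 1 rose. H2-K1, which presents peptides, was 2.80-fold higher (adjusted p = 5.5e-05) and H2-D1 3.20-fold lower (adjusted p = 3.9e-06). These 2 are similar genes that vary between mouse strains, so each value is uncertain, and the part of the strain was not tested. B2m, their shared partner, was at 668, 908, 305, 684 and 935 CPM against 1744 to 2321 (-1.46, adjusted p = 3.5e-04), a call lost with the offset (-0.20, adjusted p = 0.36). Of 11 chemokines and inflammatory genes 5 fell, among them Cxcl12 (log2 fold change -1.72, adjusted p = 3.3e-05) and Nfkbia (-1.62, adjusted p = 1.1e-05), and 1 rose, Tnfaip3, an inhibitor of NF-kB (2.65-fold, adjusted p = 7.5e-04).

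Genes of protein folding fell and several p53 targets rose. Of 25 genes of endoplasmic reticulum stress, mostly chaperones and folding enzymes, 17 fell and 2 rose. Hsp90b1 was at 287, 360, 212, 335 and 411 CPM against 1007 to 1246 (3.48-fold lower, adjusted p = 3.5e-06), Calr was 3.74-fold lower (adjusted p = 5.9e-06) and Hspa5 1.56-fold lower (adjusted p = 0.021). The 2 that rose belong to the amino acid response: Asns, asparagine synthetase, at 10.2, 17.6, 17.6, 38.8 and 6.42 CPM against 1.01 to 2.38 (11.3-fold higher, adjusted p = 1.8e-05), and Ddit3, the factor CHOP (3.45-fold higher, adjusted p = 9.1e-06). The 3 libraries of GAB242 held 5.45, 7.64 and 105 CPM of Asns. Chac1, a further gene of that response, fell (6.06-fold, adjusted p = 5.9e-05).

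Of 14 p53 targets and cell cycle inhibitors 7 rose, 5 of them over 4-fold, and 3 fell. Of all genes 39.2% rose, 14.9% over 4-fold, and 34.0% fell. Cdkn1a, which encodes the inhibitor p21, was at 56.3, 35.1, 63.6, 62.4 and 23.9 CPM against 0.741 to 2.51, 34.8-fold higher (5.12 on the log2 scale with an SE of 0.384, adjusted p = 3.2e-07). The lowest tumour animal was well above the highest WT animal, and the value was 5.10 with the offset and 5.01 without GAB235. Bbc3, the death protein PUMA, was 6.06-fold higher (adjusted p = 9.0e-06), Gdf15, a secreted stress signal, 7.23-fold higher (adjusted p = 3.1e-05), and Eda2r, a death receptor, 12.5-fold higher (adjusted p = 6.9e-04) or 2.74 on the log2 scale without GAB235. Mdm2, which degrades p53, was 1.58-fold higher (adjusted p = 3.2e-04), and Sesn2, a stress-response gene, 1.81-fold lower (adjusted p = 0.0022).

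In the Hippo pathway, which restrains organ size, 8 of 17 rose and 3 fell, against 39.2% and 34.0% of all genes. With the offset it was 5 and 5 of 15, and 4 rises of over 4-fold became 0. GAB235 had the highest level for 14 of the 17. Nf2, an upstream activator, was 5.43-fold higher (171, 134, 237, 138 and 126 CPM against 23.2 to 32.5, adjusted p = 2.4e-07), and the kinase Stk3 4.05-fold higher (adjusted p = 1.1e-06). Tead1, the factor that Yap1 binds, was 9.06-fold higher (adjusted p = 4.0e-05), or 1.70 on the log2 scale with the offset and 2.46 without GAB235, in place of 3.18. Lats1, the kinase that inhibits Yap1, was 1.58-fold lower (adjusted p = 7.6e-04).

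Of 18 growth factor and cytokine receptors 6 rose and 5 fell (3 and 8 with the offset, and 6 and 7 with upper-quartile scaling). These counts are near the shares over all genes (39.2% and 34.0%) and say nothing about the list. Over 4-fold it was 5 and 2, against 14.9% and 6.70% of all genes, and 0 and 4 with the offset. Egfr, the receptor of epidermal growth factor, was at 111, 69.9, 42.0, 156 and 167 CPM against 906 to 1721 (10.9-fold lower, SE of the log2 fold change 0.382, adjusted p = 7.0e-06). Il6st, shared by receptors of the interleukin-6 family, was 4.04-fold lower (adjusted p = 9.9e-08). Fgfr3 was at 230, 189, 142, 155 and 210 CPM against 27.1 to 43 (5.70-fold higher, adjusted p = 1.6e-07), and Prlr, the prolactin receptor, 5.62-fold higher (adjusted p = 1.7e-04). Some receptors were high in single animals. Igf1r was at 192 CPM in GAB229 and at 15.9 to 17.7 CPM in the other 4, against 6.35 to 10 in WT (log2 fold change 2.58, adjusted p = 0.0051, and 0.94 without GAB229). Fgfr1 reached 136 CPM in GAB235 and 67.1 in GAB242, against 5.63 to 8.20 in WT (2.70, adjusted p = 0.0091, and 1.69 without GAB235). Both calls were lost with the offset (adjusted p = 0.18 and 0.14).

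Of 20 circadian clock genes 4 rose and 7 fell, against 39.2% and 34.0% of all genes. Over 4-fold it was 3 and 4, against 14.9% and 6.70% of all genes. Arntl, which encodes the activator BMAL1, was at 195, 90.7, 70.2, 151 and 67.1 CPM against 1.49 to 4.44 in WT, 45.9-fold higher (5.52 on the log2 scale with an SE of 0.392, adjusted p = 2.1e-07). Npas2, which can replace its partner, was 56.4-fold higher (log2 fold change 5.82, adjusted p = 1.1e-05, and 6.55 without the highest of the WT animals) and Clock, the partner, 6.55-fold higher (adjusted p = 1.4e-07). Of the genes that these factors are known to activate, Dbp, Nr1d2, Ciart and Per2 fell, and Nr1d1, Per1, Per3 and Tef did not pass (with the offset Tef did, at -0.87). Dbp was at 3.99, 10.9, 36.4, 4.10 and 38.6 CPM against 63.6 to 145 (4.99-fold lower, adjusted p = 0.0046), Nr1d2, a repressor of Arntl, was 5.85-fold lower (adjusted p = 5.8e-05), Ciart 5.05-fold lower (adjusted p = 8.7e-05) and Per2 2.17-fold lower (adjusted p = 3.0e-04). Nr1d1, the other repressor, varied widely in both groups and did not pass (6.21 to 42.4 CPM against 22 to 109.7, adjusted p = 0.19). Rora, an activator of Arntl, rose by 1.59 (adjusted p = 2.0e-06), or 0.42 with the offset.

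The animals with the most Arntl, GAB18 and GAB242, had the least Dbp. Libraries of GAB242 and of GAB294 lay apart for Dbp, at 2.62, 3.95 and 5.86 CPM and at 37.5, 39.0 and 39.3 CPM. So they did for Arntl, at 130.7 to 170.7 and 47.15 to 80.05 CPM. For Cry2 they overlapped, at 6.95 to 19.43 and 7.07 to 15.82 CPM. The hour at which tissue was taken moves these genes in normal liver, is not in the labels, and cannot be told apart from the groups.

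**Figure D5:**
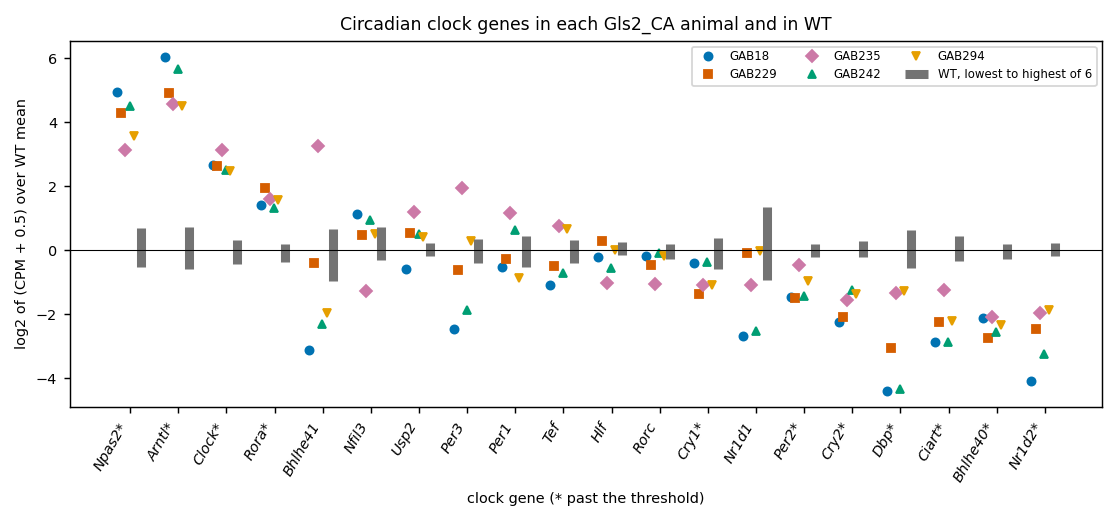
Level of 20 clock genes in each Gls2_CA animal (coloured symbols), as log2 of CPM plus 0.5 over the WT mean plus 0.5, with grey bars for the range of 6 WT animals. Npas2, Arntl, Clock and Rora lie above the WT bar and Bhlhe40, Nr1d2, Cry2 and Dbp below it in all 5 animals, while Bhlhe41 and Per3 spread to both sides.

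The promoters of this pair of genes that moved in opposite directions show the sites through which the clock is known to work, and they were chosen after the values were seen. They come from RefSeq on the build GRCm38.p6, where 17 of the 20 clock genes had a window from 250 bases before to 50 bases after the start. Capitals mark the E-box CACGTG, which BMAL1 binds, and the ROR response element (AANTN followed by GGTCA), through which Rora activates and Nr1d2 represses genes, each searched on both strands and not overlapping.
Ciart, chr3:95882229-95882478, minus strand, the 250 bases before its start, 3 E-boxes: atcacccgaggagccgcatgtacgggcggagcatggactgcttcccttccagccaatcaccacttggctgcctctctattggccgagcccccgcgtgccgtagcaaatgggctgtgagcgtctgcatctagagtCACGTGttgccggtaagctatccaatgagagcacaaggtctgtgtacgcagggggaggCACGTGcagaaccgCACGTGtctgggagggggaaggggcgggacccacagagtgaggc
Arntl, chr7:113207528-113207557, plus strand, 30 bases around 1 ROR response element that begins 28 bases after its start: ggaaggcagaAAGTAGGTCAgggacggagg
Of all 32851 windows 7.15% held an E-box and 0.606% a ROR response element. Of the clock genes 5 held an E-box, of which 2 fell (Ciart and Cry1) and 3 did not pass (Bhlhe41, Per1 and Tef), and only Arntl held the ROR response element. A match describes these letters and is not a measure of binding.

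Of 13 immediate early and heat shock genes, which respond within minutes to growth signals or to stress, 6 fell and 2 rose, with Ier2 5.23-fold lower (adjusted p = 3.7e-06) and Dusp1 4.31-fold lower (adjusted p = 6.6e-05). Of 13 hypoxia genes 4 rose and 4 fell (3 and 6 with upper-quartile scaling), against 39.2% and 34.0% of all genes. Vegfa, the vessel growth factor, was at 260 to 440 CPM against 141 to 162 (2.29-fold higher, adjusted p = 1.4e-05), and P4ha1, of collagen synthesis, 4.18-fold higher (adjusted p = 4.8e-05). Bnip3, of mitochondrial turnover, was 5.46-fold lower (adjusted p = 2.0e-06) and Epas1, the hypoxia factor HIF-2alpha, 3.55-fold lower (adjusted p = 6.9e-06).

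Genes of epithelial junctions and keratins rose in 3 and fell in 4 of 15 cases (6 and 4 without GAB235, 4 and 3 without GAB242, and 3 and 3 with the offset). Cdh1, which encodes E-cadherin, was at 27.5, 25.9, 8.69, 7.40 and 2.64 CPM against 78.4 to 94.6 (6.04-fold lower, adjusted p = 6.5e-04), and the scaffold gene Tjp1 was 4.92-fold higher (adjusted p = 5.4e-08). Among 9 mesenchymal transition genes 4 rose and 3 fell (3 and 5 without GAB235, 3 and 4 without 1 of the WT animals, and 1 and 3 with the offset), and GAB235 had the highest level of 6. Vim, vimentin, was at 536 CPM in GAB235 and 7.67 to 10.7 CPM in the other 4, against 15.5 to 19.3 in WT. Its log2 fold change was 2.70 (adjusted p = 0.044), and without GAB235 it fell by 0.95 (adjusted p = 2.2e-05). Without any 1 of the WT animals (0.075 to 0.080), or with the offset (0.069), Vim was not called. Tgfbi, a matrix protein, was 5.22-fold lower in a narrow range of 7.08 to 9.48 CPM (adjusted p = 2.0e-08). Oncofetal genes rose in 4 of 8 cases and fell in 1. Afp, alpha-fetoprotein of fetal liver, was at 2.34 to 4.98 CPM against 2.02 to 4.99 (adjusted p = 0.84), and Igf2bp3, a fetal RNA-binding protein, rose by 1.82 (adjusted p = 8.3e-04). H19, a fetal non-coding RNA, was at 1.75, 143 and 1113 CPM in the 3 libraries of GAB242.

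Chromatin genes rose more often than they fell, by amounts that the offset lowered. Of 26 histone and DNA modifying enzymes 22 rose and 1 fell (median 1.72), or 14 and 6 with the offset (0.65). Kmt2c, a histone H3 lysine methyltransferase, was at 1516, 1431, 2435, 1576 and 1678 CPM against 144 to 161 (log2 fold change 3.52, adjusted p = 2.3e-08, and 1.76 with the offset), and Kmt2d was at 2.99 (0.75 with the offset). Uhrf1, which maintains DNA methylation, was 8.86-fold higher (adjusted p = 9.5e-07). Tet1 was at 79.6 CPM in GAB235 and at most 1.49 in the other animals, and its call (4.81, adjusted p = 0.011) was lost without GAB235 (0.41, adjusted p = 0.46) and with the offset (adjusted p = 0.060). Of 19 SWI/SNF subunits, the family of Arid2, 12 rose and 5 fell (9 and 8 with the offset). Pbrm1, its partner in PBAF, was at 973, 1367, 2514, 1828 and 1963 CPM against 82.5 to 91.6 (20.2-fold higher, adjusted p = 4.1e-08), and Brd9, of another complex of the family, 9.81-fold higher (adjusted p = 4.2e-07). Smarcc1, a core subunit, was 2.51-fold lower (adjusted p = 2.4e-05). CHD remodellers rose in 5 of 8 cases and fell in 2 (3 and 4 with the offset), with Chd4 5.61-fold higher (adjusted p = 2.1e-06) and Chd1 2.42-fold lower (adjusted p = 7.2e-07).

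Ribosomal and proteasome genes fell. Of 78 cytosolic ribosomal proteins 56 fell and 8 rose (median -1.02), or 35 and 15 with the offset (-0.39). Rps2 was 9.28-fold lower (adjusted p = 8.0e-08), and Rps24 3.60-fold higher (adjusted p = 5.1e-06). Processed copies of these genes elsewhere in the genome can share their reads. Of 37 proteasome subunits 30 fell and 1 rose, and 27 and 3 did so with the offset. Psmc5, of the regulatory particle, was at 12.3 to 15.6 CPM against 40.3 to 48.4 (3.10-fold lower, adjusted p = 8.3e-08), and Psmd4 was the 1 that rose (1.44-fold, adjusted p = 0.015).

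The 10 largest rises included 3 genes with no counts in WT. Duoxa1, which matures a hydrogen peroxide producing enzyme, was at 65.4, 6.48, 3.15, 7.29 and 46.9 CPM. Taking 3 counts over all WT animals as the floor (0.0329 CPM), Duoxa1 was at least 785.8-fold higher (adjusted p = 6.9e-04), the calcium channel Cacna1b at least 670.4-fold (adjusted p = 0.0013) and the glycerol channel Aqp7 at least 388-fold (adjusted p = 3.4e-04). Cacna1b was at 69.2 CPM in GAB242 and 1.76 to 28.1 CPM in the other 4, and without GAB242 its bound was 312-fold. Without GAB18 that of Duoxa1 was 485-fold. Rims2, of synaptic vesicle release, was at 304, 145, 321, 159.6 and 267 CPM against 0 to 0.891 (811-fold higher, SE of the log2 fold change 0.637, adjusted p = 1.2e-07). Inpp5j, a phosphoinositide phosphatase, was at 26.1, 29.9, 2.27, 27.5 and 25.8 CPM against at most 0.0673 (log2 fold change 9.80, adjusted p = 1.1e-06). Without single WT animals Rims2 reached 10.49 and Inpp5j 10.44 on the log2 scale. Rims2, Inpp5j and Slc7a11 were also among the 10. All of the 10 were above WT in all 5 animals, which the rule that chose them required. The other 4 were Tenm4, Nptx1, Ttn and Kcnma1, each highest in GAB235. Their log2 fold changes were 12.30, 11.77, 11.64 and 9.74 with GAB235 and 6.00, 9.30, 0.95 and 4.65 without it, and Nptx1 was at 12.37 without 1 of the WT animals.

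Gls2_CA tumours were then set against Cyp1a2_CA tumours, which carry the same alleles under the driver of a pericentral gene (9 animals), to test whether any change was particular to Gls2_CA. Of 17129 genes tested 0 passed (0%) with edgeR, 554 had an unadjusted p under 0.05, and DESeq2 and limma-voom with quality weights called 20 and 10. Without GAB235 edgeR again called 0, with 1347 at an unadjusted p under 0.05. For 6 of the genes above, the differences between the tumour groups on the log2 scale were -4.74 for Serpina1e (SE 1.147), -0.82 for Alb (SE 0.455), 0.98 for Abcc4 (SE 0.703), -0.23 for Cdkn1a (SE 0.388), -0.44 for Arntl (SE 0.360) and -0.11 for Stab2 (SE 0.294). Their adjusted p-values were all 1.0. No gene described here was shown to be particular to Gls2_CA tumours, and a p that misses the threshold does not show that the groups are alike.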

How the data were processed

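RNA from frozen liver and tumour pieces was sequenced (Nugen Ovation libraries from 100 ng RNA, per the labels' protocols). The authors deposited 1 table of raw read counts per gene symbol, 35976 symbols by 26 libraries, on mm10 per the submitters' processing notes. No aligner, counter, annotation or strand setting is given in the sources used here, so overlapping and antisense genes cannot be told apart. Libraries of 1 animal number were summed, since fragments of 1 animal are not replicates. Any 2 libraries of 1 group differed by more than sampling noise (chi-square per degree of freedom at least 13.6), and all were kept.

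The main test was edgeR 4.0.16 (quasi-likelihood, robust, R 4.3.3) on genes kept by its expression filter, with TMM scaling and a Benjamini-Hochberg threshold of 0.05. Alternatives were RLE and upper-quartile scaling, no filter, at least 1 CPM in 5 animals, DESeq2 1.42.0, limma 3.58.1 (voom with quality weights), other replicate units, all 3 groups in 1 fit, an offset for exon length and GC content (90.3% of tested genes had both), thinned tumour counts and each animal left out. On simulated counts for 14855 genes, 50 of 50 genes changed 4-fold were called in each direction, 34 of 50 raised 2-fold and 30 of 50 lowered 2-fold, with 6 of 14655 unchanged genes called. The simulation gave every gene and animal the same dispersion and held no outlying animal, unlike these data. It checks the code and does not give the error rates of the test here.

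Members and the 48 gene and 17 marker lists were chosen with earlier results of these data known. Genes were named by rule: the 10 largest rises and falls past the threshold with at least 10 CPM in the higher group and no overlap, and, per list, up to 3 members with the smallest p and the first in the other direction, with others where a list is gone through by role. Wnt, zonation and proliferation lists were left out, and some genes that the rule names are not reported here. In 3 of 4 lists defined by a name pattern the pattern was stored incompletely and was rewritten after the files were seen, which also set the names of mitochondrial genes.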

Additional observations from a re-analysis of the deposited data

Results flagged for a closer look

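Among the 5 Gls2_CA and the 6 WT animals, 1 animal lay far from the others, by Dixon's test of the highest and the lowest value at 95%, in 52 of 414 groups of values of the genes named above. The CPM were not transformed, genes of 1 animal are not independent, and some genes were named because 1 animal was high. The 52 therefore cannot be set against a rate expected by chance. Each value below is followed by that of the nearest other animal of its group.

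GAB235 was the outlying highest animal for Bhlhe41 (40.8 CPM, next 2.77), Brd9 (122 CPM, next 63.6), Ciart (6.00 CPM, next 2.78), Clock (542 CPM, next 392), Jak2 (109 CPM, next 65.8) and Kcnma1 (1566 CPM, next 16.0). The same held for Kmt2c (2435 CPM, next 1678), Nptx1 (375 CPM, next 23.4), P4ha1 (111 CPM, next 60.7), Per3 (211 CPM, next 66.1), Pkm (658 CPM, next 65.6) and Smarcc1 (29.4 CPM, next 17.5). The same held for Tead1 (282 CPM, next 88.8), Tenm4 (3905 CPM, next 13.2), Tet1 (79.6 CPM, next 1.49), Ttn (31467 CPM, next 4.20) and Vim (536 CPM, next 10.7). It was the outlying lowest animal for Chac1 (0.151 CPM, next 0.443), Epas1 (54.2 CPM, next 104), Etfa (14 CPM, next 29.9), Gc (352 CPM, next 1202), Hnf4a (216 CPM, next 709) and Inpp5j (2.27 CPM, next 25.8). The same held for Prdx1 (29.3 CPM, next 74.7) and Psmd4 (44.9 CPM, next 79.0). GAB229 was the outlying highest animal for Cd74 (274 CPM, next 86.8), Ciita (29.6 CPM, next 13.9), Gsta1 (25.0 CPM, next 6.56), Igf1r (192 CPM, next 17.7) and Selenbp2 (14.7 CPM, next 2.73). GAB242 stood above the others for H19 (409 CPM, next 96.9) and Mup11 (0.649 CPM, next 0.151). GAB294 did so for Moxd1 (0.173 CPM, next 0), Mup17 (10.8 CPM, next 0.466) and Saa2 (90.6 CPM, next 11.6). GAB18 did so for Col3a1 (30.2 CPM, next 18.3).

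Among WT animals, 1 stood above the others for Cyp4a14 (23.9 CPM, next 4.79), F12 (430.0 CPM, next 384), Fgb (6242 CPM, next 4686), Gc (6520.0 CPM, next 5516), Hp (3498 CPM, next 2379) and Mlxipl (570.4 CPM, next 433). So it was for Nr1d1 (109.7 CPM, next 41.8), Psmd4 (66.5 CPM, next 53.1), S100a8 (3.05 CPM, next 1.15) and Saa2 (833 CPM, next 246). Among WT animals, 1 stood below the others for Aass (234 CPM, next 314), Clec4f (68.7 CPM, next 77.4), Etfa (139.7 CPM, next 166), Fmo5 (842 CPM, next 1221), Nf2 (23.2 CPM, next 29.2) and Rps2 (167 CPM, next 276).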

How the results depend on the processing

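The number of genes past the threshold against WT, 10965, was 10694 to 11879 when 1 animal was left out in turn, and it stayed within 1.5 times of that number under the other 11 settings, from 9378 with the length and GC offset to 12109 with no filter. The number also over 4-fold, 3237, was 2963 to 3435 when 1 animal was left out and 2501 to 4675 under the same 11 settings. Against Cyp1a2_CA 0 genes passed with edgeR, also without any 1 animal, 20 with DESeq2, 10 with limma-voom with quality weights and 6 with every library as a replicate. The cause of these differences was not tested. Of 207 genes named and tested, the direction turned, with a call in at least 1 of the fits compared, without GAB235 for Bhlhe41 (-2.07 to 1.53 over all animals left out in turn) and Vim (-0.95 to 3.0). It turned with limma-voom for Bhlhe41 (-3.02), Vim (-0.87) and Per3 (-1.14), and with the offset for Csf1r (-0.08) and Tef (-0.87). DESeq2 gave no adjusted p for 9 of them. Fits with single libraries per animal, or counts thinned to the WT depth, ended 4 and 1 calls. Upper-quartile scaling turned the balance of rises and falls over all genes, and that of hepatocyte transcription factors, receptors, drug transporters and dendritic cell markers. The offset turned it for hepatocyte transcription factors, receptors, interferon response, mesenchymal transition genes and CHD remodellers. DESeq2 turned it for receptors (4 and 5) and mesenchymal transition genes (2 and 3), and limma-voom for interferon response (6 and 5) and mesenchymal transition genes (3 and 4). Leaving out GAB235 turned it for Nrf2 targets, interferon response, epithelial junctions and keratins and mesenchymal transition genes, and leaving out GAB229 for bile acid transporters, cholesterol synthesis and dendritic cell markers (1 and 3, in place of 2 and 1). Depth limits genes near 0 counts in WT: where WT had none, the fold over the floor is a lower bound, and other folds of such genes are fitted values with wide errors. No paired analysis was possible because the replicate numbers of the tumour libraries were given in accession order and pair no samples.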
